A study of Arabidopsis thaliana with 6 samples.

Results

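SWEET proteins are small membrane uniporters that let sugars move down their concentration gradient. Of the 4 plant clades, clades I and II mainly carry hexoses such as glucose, clade III mainly carries sucrose, and clade IV sits in the vacuole membrane. In anthers, sugar released around the developing microspores feeds the growth of pollen and the building of its wall. The 5 genes described here, SWEET1, SWEET3, SWEET7, SWEET8 and AtVEX1, were taken by gene symbol from the platform annotation, out of 13355 genes that had their own probe set. SWEET1 and SWEET3 belong to clade I; SWEET7, SWEET8 and AtVEX1, which RefSeq also lists as SWEET5, belong to clade II. The rule uses symbols and no measured value, but the 5 were picked with earlier results of these data known. Their clade I and II relatives SWEET2, SWEET4 and SWEET6, which also had probe sets, are not among the 5 and are given separately.

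RNA came from Arabidopsis thaliana of the accession Landsberg erecta at an age of 6 weeks and was hybridised to Affymetrix ATH1 arrays, with tissue of 12 plants pooled for each. Closed buds from just before pollination were taken whole, open pollinated flowers were also taken whole, and siliques were taken 2 d after pollination with the withering floral organs removed. Each of the 3 stages had 2 arrays, from separate runs of the experiment. The labels name no treatment and no sorting of cells, so each value is a mean over all organs of a stage. Fewer cells of a type and less RNA per cell cannot be told apart in such tissue, and the organs harvested differ between stages.

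Values are MAS5 signal, a linear measure of brightness per probe set. Levels of different probe sets were not set against each other. They were added up only for the tapetum and pollen lists, where the brightest probe sets weigh most. Median signals ran from 41.5 to 48.3, and 27 control probe sets with no target in the samples reached at most 7.20 to 10.1 by array. Siliques 2, the silique array of replicate 2, had hybridisation controls at 1.78 times the mean of the other arrays. The 3' to 5' signal ratio of GAPDH, which reflects how intact the RNA is, was 0.967 and 1.02 in flowers and 0.835 to 0.919 elsewhere by one set of control probes, but by the other it was 1.61 and 1.45 in flowers and 1.12 to 1.67 elsewhere. Its part in the results was not tested.

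SWEET8, also named RPG1, is needed for the early pollen wall and is active in microspores and tapetum. Its signal was 577 and 678 in buds, 77.7 and 70.1 in flowers, and 75.4 and 69.4 in siliques. Both bud arrays stood far above the other 4 arrays, whereas flowers and siliques overlapped. The lowest of its signals, 69.4, was still well above the untargeted controls, which reached 7.62 on that array. AtVEX1, named for its expression in the vegetative cell of pollen, had signals of 284 and 297 in buds, 21.8 and 7.22 in flowers, and 30.1 and 9.41 in siliques. It was thus bright in buds alone, and flowers and siliques overlapped again. The replicate 2 arrays of these later stages were dim for AtVEX1. In flowers 2, 7.22 lay beside a highest untargeted control of 7.20, and in siliques 2, 9.41 lay beside 7.62. The bud mean was 13.3 times the signal of flowers 1 but 40.2 times that of flowers 2, and 9.66 and 30.9 times that of siliques 1 and 2, so the size of this fall is poorly fixed.

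SWEET3, a clade I gene for which little function has been established, had signals of 307 and 311 in buds, 84.9 and 84.5 in flowers, and 23.5 and 11.8 in siliques. The order was buds, then flowers, then siliques, with no overlap at either step. The silique arrays differed most from each other, and the bud mean was 13.2 times the signal of siliques 1 and 26.2 times that of siliques 2. SWEET7, known as a transporter of glucose and xylose, had signals of 349 and 275 in buds, 79.0 and 67.6 in flowers, and 223 and 198 in siliques. It was lowest in flowers and did not overlap between any 2 stages. SWEET1, a glucose uniporter of the plasma membrane, had signals of 671 and 638 in buds, 845 and 885 in flowers, and 298 and 278 in siliques. Its order was flowers, then buds, then siliques, and it was the only one of the 5 with its highest mean in flowers.

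**Figure D1:**
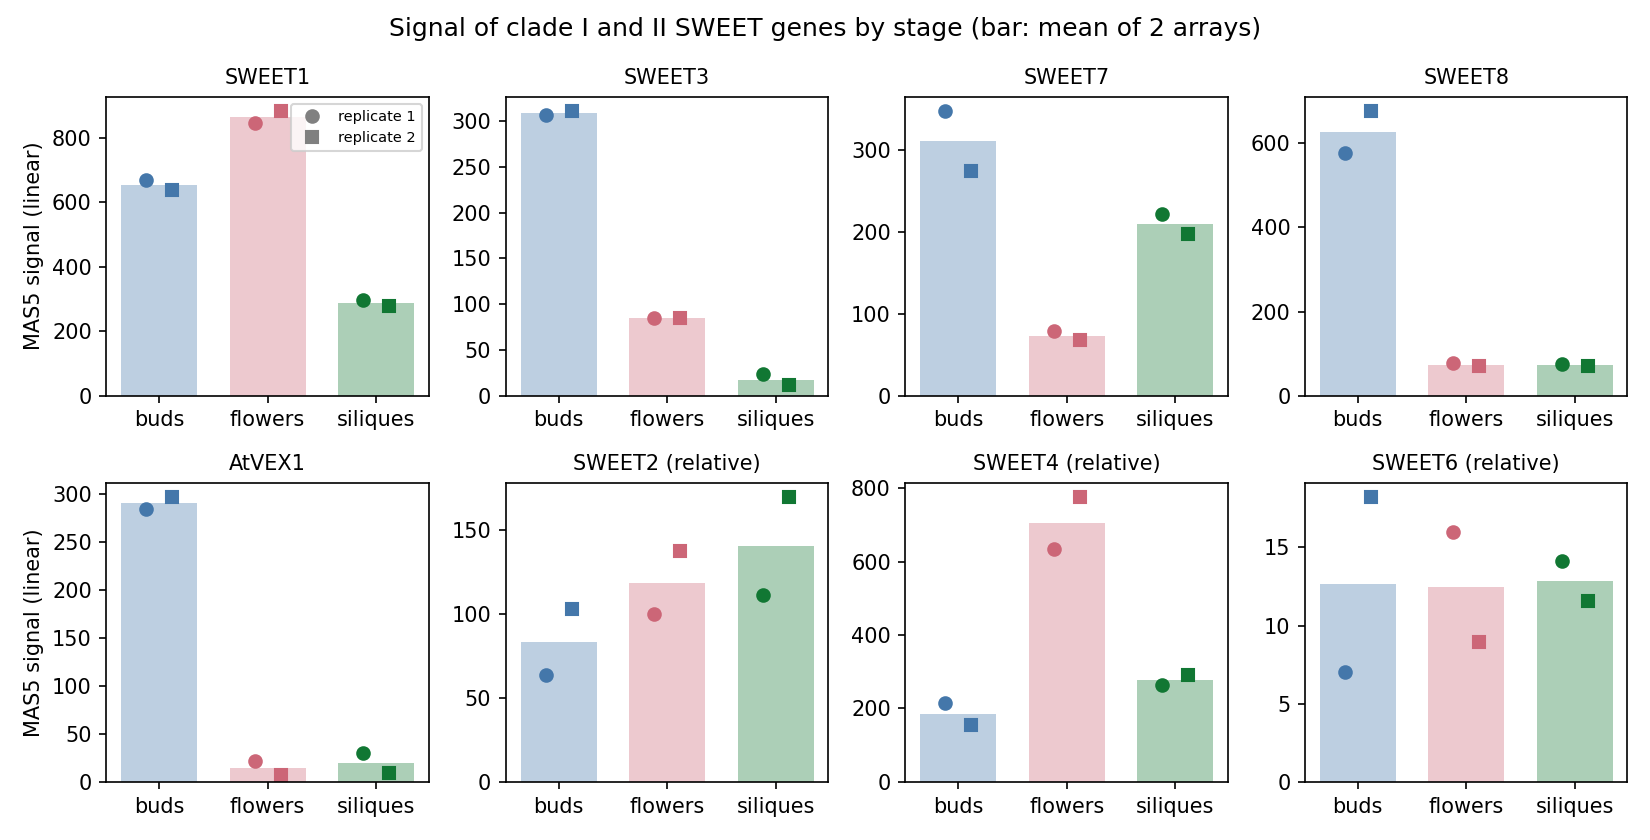
MAS5 signal on a linear axis from 0 for the 5 genes described and for their clade I and II relatives SWEET2, SWEET4 and SWEET6. Bars are means of 2 arrays, circles replicate 1 and squares replicate 2; the vertical scale differs between panels. SWEET8 and AtVEX1 are high in buds alone, SWEET3 falls at each stage, SWEET7 is lowest in flowers and SWEET1 is highest in flowers.

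Flowers were compared with closed buds to ask which of these transporters differ across flower opening. SWEET3, SWEET7, SWEET8 and AtVEX1 were lower in flowers and none of the 5 was higher. Over all 12075 probe sets tested, 10.7% were called, 6.13% lower and 4.53% higher (547 higher and 740 lower, but 704 and 618 with each array scaled to a common median). AtVEX1 fell by 3.68 ± 0.41 (limma's standard error) on the scale of log2(signal + 10), with adjusted p = 0.00268. Testing needed a signal of at least 50 on at least 2 arrays, which AtVEX1 reached in buds alone. Its lower calls against buds are therefore partly built in by the filter. The change of SWEET8 was −2.92 ± 0.15 (adjusted p = 0.000350 in limma). The changes of SWEET7 and SWEET3 were −1.94 ± 0.17 and −1.75 ± 0.22 (adjusted p = 0.00121 and 0.00410 in limma). SWEET1 did not pass: its flowers averaged 865 ± 28 (SD, n = 2), against a bud mean of 654 ± 23 (SD, n = 2). Its log2 change of 0.40 had a 95% interval of 0.08 to 0.72 before adjustment (adjusted p = 0.124 in limma). The arrays of the 2 stages did not overlap for any of the 5, which was also true of 55.3% of tested probe sets (25.8% higher and 29.5% lower in flowers). The median change of the 5 was −1.94, beside −0.01 for all tested probe sets.

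The falls were of like size in both runs of the experiment. In replicates 1 and 2 the log2 changes were −1.74 and −1.76 for SWEET3, −2.01 and −1.88 for SWEET7, and −2.74 and −3.10 for SWEET8. Those of AtVEX1, at −3.21 and −4.15, were further apart. The size of a fall to dim signals depends on the offset added before the logarithm. With offsets of 2 and 50 the change of AtVEX1 was −4.30 and −2.41 and that of SWEET8 −3.05 and −2.45, so their order is not fixed. All 4 calls were kept in each of the 15 alternative settings, 6 of which left out an array.

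Siliques were compared with flowers to ask what differs in the first days of fruit growth. Here the 5 genes went apart: SWEET1 and SWEET3 were lower in siliques, SWEET7 was higher, and SWEET8 and AtVEX1 did not pass. Of all tested probe sets 14.7% were called, 7.45% lower and 7.23% higher (873 higher and 900 lower, but 1264 and 785 with each array scaled to a common median). SWEET1 fell by 1.55 ± 0.13 on the log2 scale (adjusted p = 0.00260 in limma), from a mean of 865 to 288. SWEET3 fell by 1.81 ± 0.22 (adjusted p = 0.00671 in limma), from 84.7 to 17.6, and its change was −2.21 with an offset of 2 and −1.0 with an offset of 50. SWEET7 rose from 73.3 to 210.1, a log2 change of 1.40 ± 0.17 (adjusted p = 0.00724 in limma). The rise of SWEET7 was 1.39 in replicate 1 and 1.42 in replicate 2, but its call was lost without siliques 1 (adjusted p = 0.0599 in limma) or flowers 2 (0.0542). The number of probe sets called higher was then 80 and 106, down from 873.

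For SWEET8 the change from flowers to siliques was −0.026 with a 95% interval of −0.39 to 0.34 (adjusted p = 0.929 in limma). For AtVEX1 it was 0.25 with a wider interval of −0.73 to 1.24 (adjusted p = 0.721 in limma). The sign of both small changes also turned in some settings. The median change of the 5 was −0.026 (0.025 over all tested probe sets). Groups did not overlap for 3 of the 5, and for 62.4% of tested probe sets (33.2% higher and 29.2% lower in siliques). Differences in change between these genes were not tested; their own values stand side by side.

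Siliques were set against buds to compare the stages furthest apart. SWEET1, SWEET3, SWEET8 and AtVEX1 were lower in siliques and none of the 5 was higher, against 15.6% called over all tested probe sets, 8.52% lower and 7.03% higher (849 higher and 1029 lower, but 1987 and 850 with each array scaled to a common median). SWEET3 fell by 3.56 ± 0.22 (adjusted p = 0.000195 in limma), from a mean of 309 to 17.6, and its change was −4.05 and −2.41 with offsets of 2 and 50. The changes of AtVEX1 and SWEET8 were −3.43 ± 0.41 and −2.95 ± 0.15 (adjusted p = 0.00279 and 0.000126 in limma), and that of AtVEX1 was −3.93 and −2.30 with these offsets. SWEET1 fell by 1.16 ± 0.13 (adjusted p = 0.00242 in limma). SWEET7 averaged 210.1 ± 18 (SD, n = 2) in siliques, against 312 ± 52 (SD, n = 2) in buds. This difference of −0.54 (95% interval −0.96 to −0.12) did not pass at adjusted p = 0.0851 in limma, but passed with the replicate as a block (0.0418). This comparison and the other ones share arrays and are not independent of them. The 2 stages did not overlap for any of the 5, nor for 61% of tested probe sets (30.5% higher and 30.5% lower in siliques). The median change of the 5 was −2.95.

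**Figure D2:**
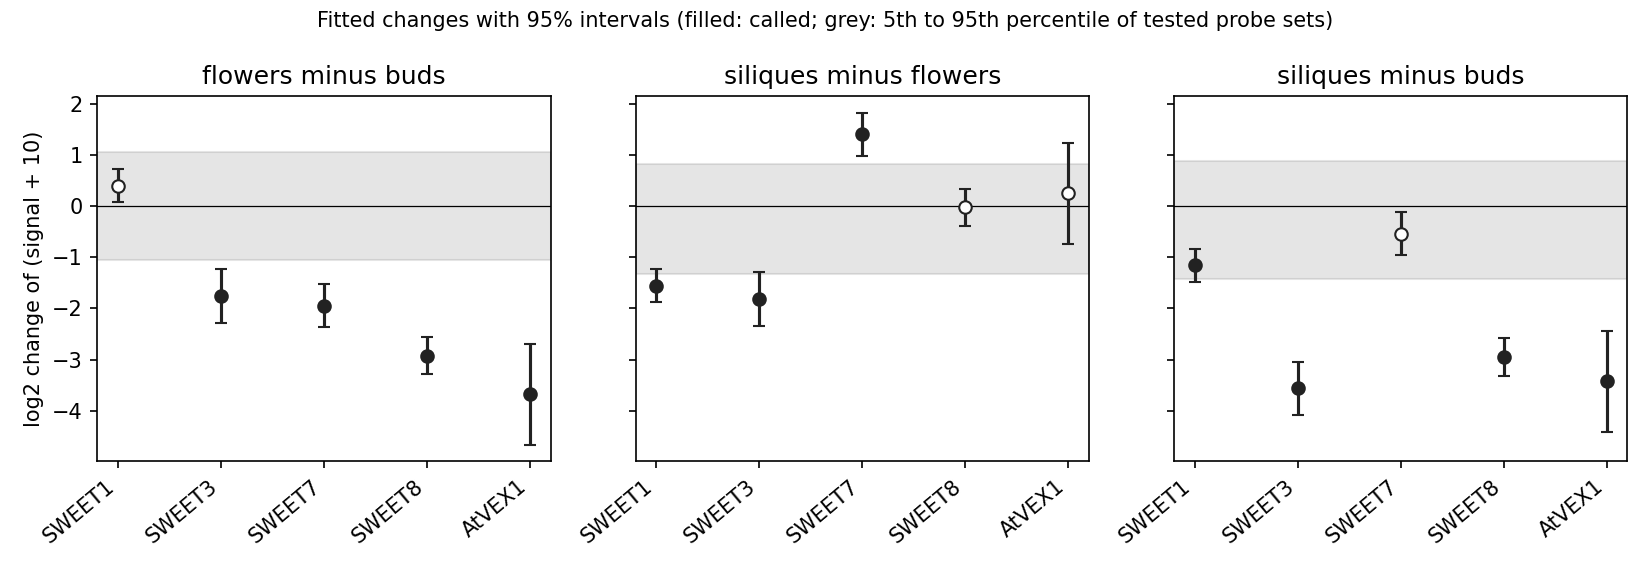
Fitted change of log2(signal + 10) for the 5 genes in each comparison, with 95% intervals. Filled points were called at an adjusted p under 0.05, and the grey band holds the 5th to 95th percentile of all 12075 tested probe sets. SWEET3, SWEET7, SWEET8 and AtVEX1 lie below the band in flowers minus buds. In siliques minus flowers SWEET7 lies above it and SWEET1 and SWEET3 below it. In siliques minus buds SWEET3, SWEET8 and AtVEX1 lie below it.

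SWEET9 and BAN, markers of flowers and of siliques, were high on the arrays so labelled. The nectary exporter SWEET9 was at 1272 and 1539 in flowers and at most 47.0 on other arrays. BAN, an enzyme of the seed coat, was at 665 and 658 in siliques and at most 35.9 elsewhere. Other genes listed for ovule and seed did not rise in siliques. INO was at 55.1 to 77.6 on all arrays. AGL62 and AGL80 were below the filter, with AGL80 at 2.87 and 2.69 in siliques and 19.3 to 28.2 elsewhere. Of 24 tapetum and pollen wall genes listed, 4 were tested among 5 present on the annotated probe sets. Against buds, ATA27, SHT and AT5G07230 (A9) were lower in flowers and 0 were higher, beside 6.13% lower and 4.53% higher of all tested probe sets. These genes reached the filter signal of 50 on the bud arrays alone. They were tested only because they were high in buds, so their lower calls are no independent result. ATA27 was at 0.669 and 49.6 in flowers. The median change of the 4 was −5.17, a size set in part by the offset, since AT5G07230 and SHT lay below the highest untargeted control in flowers (AT5G07230 changed by −7.90 and −4.08 with offsets of 2 and 50). AT5G07230 was at 553 and 1199 in buds and 1.28 to 2.84 elsewhere. The summed signal of the 5 was 2350 and 3483 in buds, 228 and 248 in flowers, and 234 on each silique array. EMS1, a receptor kinase of tapetum fate, was at 145 to 219 on all arrays and made up most of the flower and silique sums. SWEET8 and AtVEX1 were thus high on the same arrays as ATA27, SHT and AT5G07230, but EMS1 was not. The pollen genes AGL104 and AGL66 and the sperm gene MGH3, described next, were also highest in buds. The part of the tapetum in the levels of SWEET8 and AtVEX1 was not tested.

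Of 24 genes listed for the pollen vegetative cell and pollen tube, 10 had a probe set and 5 were tested. Against buds, 0 were higher and 2 lower in flowers, beside 4.53% and 6.13% of all tested probe sets, and the median change was −0.05. The 2 were AGL104 and AGL66, MADS-box factors of late pollen, which passed the filter through the bud arrays alone. AGL104 fell by 1.93 ± 0.29 but lost its call without flowers 1 (adjusted p = 0.0552 in limma). AGL66 fell by 1.76 ± 0.41 and lost its call without any 1 array but buds 2, with changes then of −2.07 to −1.31. Its call was also lost with the replicate as a block (adjusted p = 0.0511 in limma) and with an offset of 2 (0.0915). The same held without the filter (0.0575) and with median scaling (0.0505). Genes of this list differed in direction. The receptor kinase ANX2 of pollen tubes was at 111 and 151 in flowers and at 61.8 and 25.4 in buds, whereas AGL30, which was below the filter, was at 10.1 and 4.31 in flowers and at 46.9 and 17.5 in buds. AT4G39110, entered as the pollen tube receptor BUPS1, was at 184 and 180 in flowers and 149 and 77.7 in buds. The summed signal of the 10 was 727 and 417 in buds, 549 and 597 in flowers, and 145 and 277 in siliques. The flower sums lay between the bud sums, and the part of pollen in the level of AtVEX1 was not tested. The sperm gene MGH3 was at 206 and 103 in buds, 57.3 and 60.5 in flowers, and 4.40 and 18.1 in siliques.

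Some of these markers differed between the bud arrays by more than any of the 5 SWEET genes. From buds 1 to buds 2, the log2 signal of AT5G07230 was higher by 1.10, and SHT, a spermidine acyltransferase of the tapetum, went from 195 to 463. The tapetum genes ATA27 and EMS1 differed less, by 0.13 and 0.32. Over the 5 tested pollen genes the difference ran from −1.02 to −0.31. For the 5 SWEET genes it ran from −0.33 for SWEET7 to 0.23 for SWEET8, with AtVEX1 at 0.06 and SWEET3 at 0.02. The 5th and 95th percentiles over all tested probe sets were −0.80 and 0.60.

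**Figure D3:**
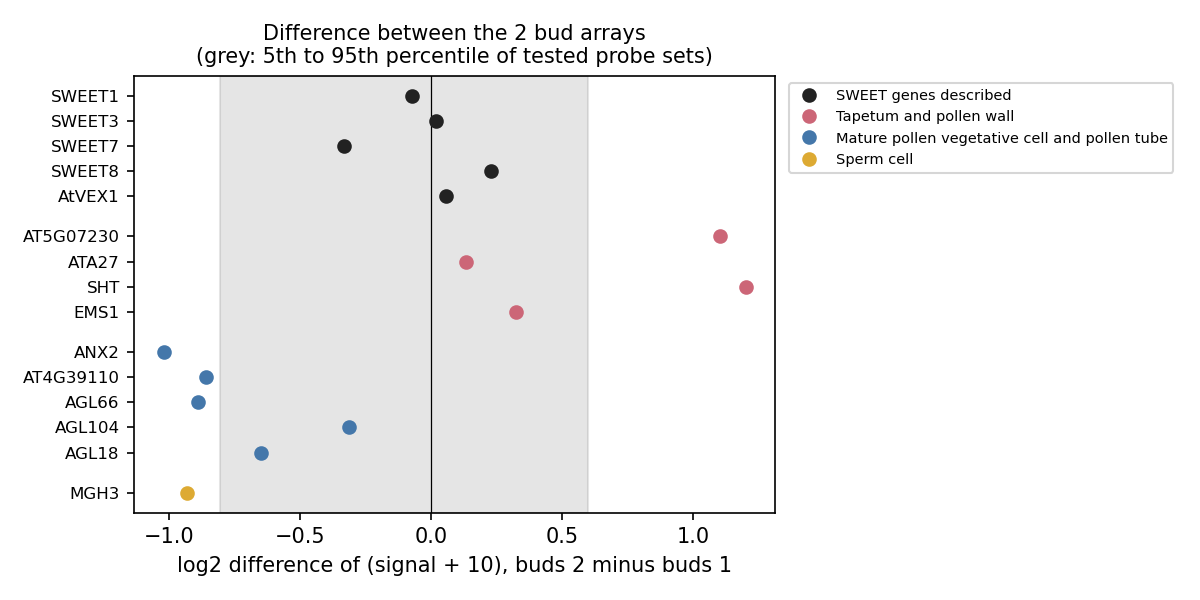
Log2 difference of (signal + 10) between the bud arrays, buds 2 minus buds 1, for the 5 SWEET genes and the tested tapetum, pollen and sperm genes, with 1 point per gene. The SWEET genes lie between −0.33 and 0.23, inside the grey band of the 5th to 95th percentile of tested probe sets, while AT5G07230 and SHT lie above it and ANX2, AGL66, AT4G39110 and MGH3 below it.

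The other clade I and II genes with a probe set were SWEET2, SWEET4 and SWEET6. SWEET4, a hexose transporter of clade II, had signals of 215 and 155 in buds, 635 and 776 in flowers, and 265 and 291 in siliques. It was high in flowers, the opposite of its clade II relative SWEET7. It rose by 1.89 ± 0.20 from buds to flowers (adjusted p = 0.00220 in limma). It fell by 1.31 ± 0.20 from flowers to siliques (adjusted p = 0.0126 in limma), a call lost without siliques 1 (0.0895) or flowers 2 (0.0748). Siliques exceeded buds by 0.58 for SWEET4, which did not pass (adjusted p = 0.0995 in limma). This difference passed with each array scaled to a common median (adjusted p = 0.0377 in limma). SWEET2, a vacuolar clade I transporter, was at 63.7 and 103 in buds, 99.6 and 137 in flowers, and 111 and 169 in siliques, and passed in no comparison. It passed for siliques against buds with the replicate as a block (log2 change 0.69, adjusted p = 0.0228 in limma). SWEET6 was at 7.03 to 18.2 on all arrays and was not tested. Of the 8 SWEET genes of clades III and IV, 7 were tested. In the comparisons that follow, 10.7%, 14.7% and 15.6% of all tested probe sets were called, in that order. Against buds, SWEET9 and SAG29 were higher in flowers and SWEET10 was lower (median 0.27). SWEET9 and SWEET11 were lower in siliques than in flowers (median −2.20), and SWEET14 was lower in siliques than in buds (median −0.72). The calls of SAG29 and SWEET10 were lost without any 1 of the 4 arrays compared (adjusted p = 0.0532 to 0.167 in limma), and that of SWEET11 without flowers 1 (0.0711) or flowers 2 (0.0671). That of SWEET14 was lost without buds 1, siliques 1 or siliques 2 (0.0751 to 0.125).

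Among genes that handle the hexoses these proteins carry, coverage on the annotated probe sets was thin. Over all tested probe sets, 10.7% were called in flowers against buds, 14.7% in siliques against flowers and 15.6% in siliques against buds. The counts for these lists rest on few genes and were not tested against those shares. Of 19 other monosaccharide and polyol transporters 4 were tested; in flowers against buds 0 were higher and 1 lower (median −0.45), and the counts were 0 and 1 in siliques against buds (median −0.32) and 0 and 0 in siliques against flowers (median 0.13). The one called was TMT3, a sugar carrier of the vacuole membrane, at 181 and 158 in buds, 17.0 and 16.0 in flowers, and 19.8 and 9.80 in siliques. It fell by 2.76 ± 0.25 from buds to flowers (adjusted p = 0.00124 in limma). Like SWEET8, it was high in buds alone.

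Of 13 hexokinase and fructokinase genes 5 were tested, all fructokinases. In flowers against buds 0 were higher and 2 lower (median −0.88), in siliques against flowers 1 was higher and 0 lower (median 0.25), and in siliques against buds 0 were higher and 2 lower (median −0.63). AT3G59480 was at 200 and 243 in buds, 27.6 and 39.9 in flowers, and 38.4 and 28.3 in siliques, and fell by 2.41 ± 0.22 from buds to flowers. AT4G10260 was at 112 and 144 in buds, 20.2 and 22.5 in flowers, and 8.85 and 0.476 in siliques. Its call for flowers was lost with the smaller offset (adjusted p = 0.0756 in limma) and without flowers 1, flowers 2 or buds 2 (0.0528 to 0.0603). AT1G66430 rose by 0.94 ± 0.20 from flowers to siliques, a call lost without any 1 of those 4 arrays (adjusted p = 0.0777 to 0.160 in limma).

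Of 14 STP genes, hexose symporters driven by protons, 2 were tested. None passed in flowers against buds (median 0.14). In siliques against flowers 1 was higher and 1 lower (median 0.04), and in siliques against buds 1 was higher and 0 lower (median 0.17). AT1G34580 (STP5) was at 71.2 and 68.3 in siliques and 25.1 to 36.7 elsewhere, and AT5G61520 (STP3) was at 59.2 and 64.2 in flowers and 27.8 and 22.1 in siliques. Both calls in siliques against flowers were lost without any 1 of the 4 arrays compared (adjusted p = 0.0785 to 0.141 in limma), and that of AT1G34580 against buds without any 1 array (0.0505 to 0.124). Of 14 invertase and sucrose synthase genes only the vacuolar invertase AT1G62660 was tested. It was at 95.5 and 113 in buds and 47.1 and 57.4 in flowers, a fall of 0.87 ± 0.19. The call was lost without any 1 of these arrays, with changes then of −0.99 to −0.75. With all arrays kept, it was lost without the filter (adjusted p = 0.0583 in limma) and with median scaling (0.0556). None of the 9 sucrose symporter genes had a probe set of its own in the annotation.

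The likeness of profiles was measured as the root mean square difference of log2(signal + 10), each profile centred on its own mean, over 6 arrays in 3 stages. SWEET8 and AtVEX1 were the closest pair among the 5, at 0.47, and SWEET1 and AtVEX1 the most distant at 1.71. Among 973 probe sets of other genes with a symbol, those closest to SWEET8 were SPL, which starts sporogenesis, CHX19, a cation and proton exchanger, TMT3, and XIE, a myosin, at differences of 0.19 to 0.28. SPL was at 59.2 and 57.8 in buds and 1.13 to 2.10 elsewhere, below the highest untargeted control of each array. Its closeness to SWEET8 and AtVEX1 is therefore set in part by the offset. CHX19 was at 214 and 206 in buds and 21.3 to 28.9 elsewhere. Those closest to AtVEX1 were TMT3, DD46, SPL and LEA, at 0.47 to 0.60. All of these genes, closest to SWEET8 or to AtVEX1, passed the filter through the bud arrays alone. With an offset of 50, 0 of the 4 remained among the closest to SWEET8 and 1 of the 4 to AtVEX1.

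The closest to SWEET3 were COR15A, a cold-induced chloroplast protein, OCT1, an organic cation transporter, PC1, and SBT4.13, a subtilase. COR15A, at 0.18, was at 369 and 358 in buds, 111 and 103 in flowers, and 43.9 and 13.5 in siliques. Those closest to SWEET1 were ATL8, a ubiquitin ligase, UGT74D1, a glycosyltransferase, HWS, an F-box protein, and ARD4, a dioxygenase of methionine salvage, at 0.16 to 0.21. Those closest to SWEET7 were PMEAMT, a methyltransferase of choline synthesis, IRX15-L, of xylan synthesis, and the plastid-encoded genes atpF and rpl14, at 0.37 to 0.39. PMEAMT was at 565 and 554 in buds, 257 and 213 in flowers, and 441 and 316 in siliques. With an offset of 50, 3 of the 4 remained for SWEET3, 2 for SWEET1 and 1 for SWEET7.

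**Figure D4:**
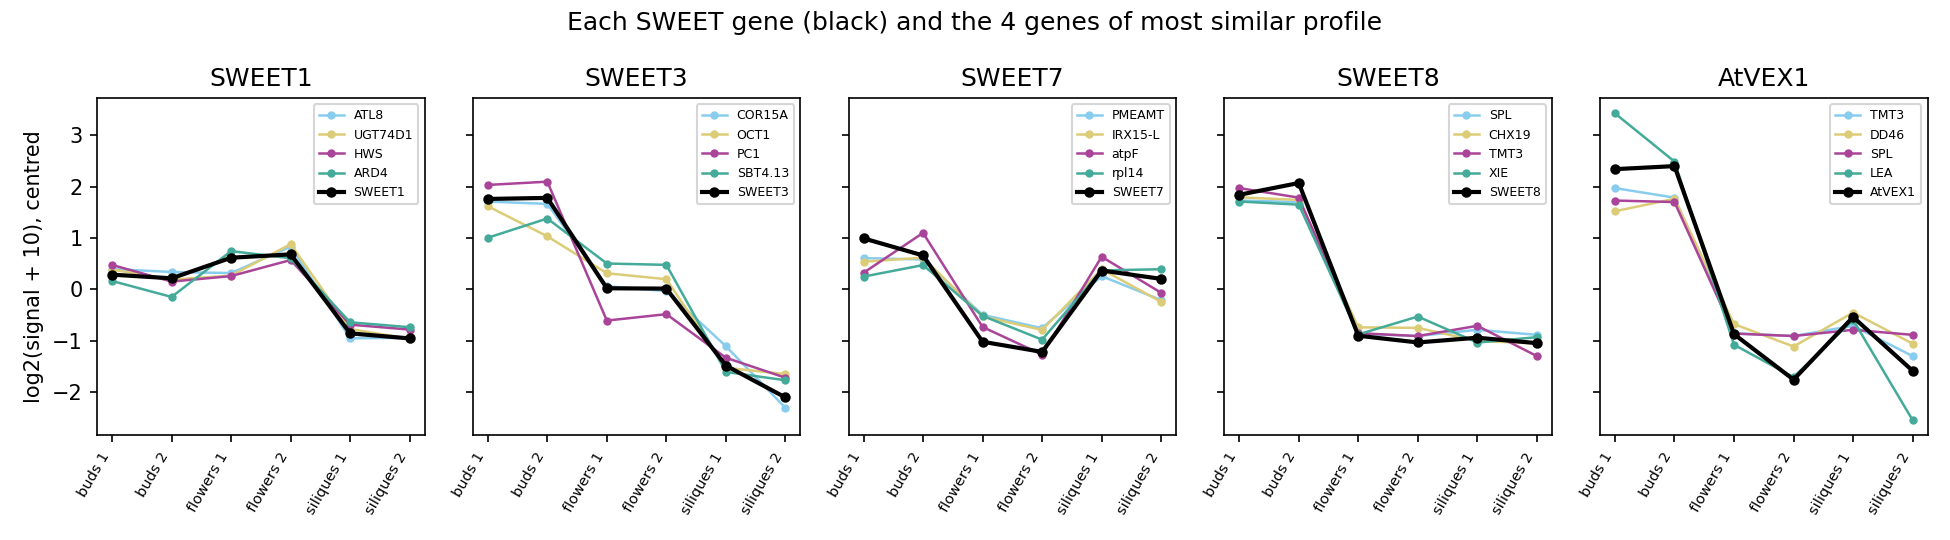
Centred log2(signal + 10) on the 6 arrays for each of the 5 genes (black) and the 4 genes with the closest profile (colours). The lines of SWEET1 lie within 0.16 to 0.21 of it by root mean square difference, whereas those of SWEET7 and AtVEX1 lie further away.

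The 5 genes lay apart in the genome, SWEET1 on chromosome 1, SWEET7 on chromosome 4 and the others on chromosome 5, and none was next to another. Of their 10 nearest protein-coding neighbours in RefSeq (assembly TAIR10.1), 5 had a probe set and 3 passed the filter, beside SWEET8 on both sides and beside AtVEX1. None of the 3 was called in any comparison, with changes from buds to flowers of −0.04 and −0.52 beside SWEET8 and 0.22 beside AtVEX1. By comparison, 10.7% to 15.6% of all tested probe sets were called, so no call among 3 does not set these neighbours apart. This look at neighbours was added after the values of the 5 genes had been seen.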

How the data were processed

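The authors deposited MAS5 signal intensity, 1 value per probe set on a linear scale; MAS5 is named in the submitters' processing notes, with settings not given in the sources used here. The 2% trimmed mean was 100.01 on every array. The table held 22810 probe sets, of which 64 controls were left out. The supplied platform annotation paired 13513 with a single gene, and RefSeq (TAIR10.1) supplied loci for 13436.

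Probe sets with a signal of at least 50 on at least 2 arrays were tested (12075, with 10671 below), the 5 genes among them. AtVEX1, ATA27, SHT, AT5G07230, AGL66, AGL104, TMT3, AT3G59480 and AT4G10260 reached 50 on the bud arrays alone. So did SPL, CHX19, XIE, DD46, LEA and PC1, named for their close profiles. SWEET9 and AT5G61520 did so on the flower arrays alone, and BAN and AT1G34580 on the silique arrays alone. Such genes passed only through the stage where they were high, which favours calls away from that stage. Log2(signal + 10) was fitted with limma 3.58.1 in R 4.3.3 (eBayes with a trend, all 6 arrays, 3 residual degrees of freedom). Two-sided p values were adjusted by Benjamini-Hochberg over all tested probe sets and called under 0.05. An exact permutation test of 2 arrays against 2 cannot go below 0.333 and was not used. Precision is limited by having 2 arrays per stage.

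The labels say that the whole experiment was run a second time, so replicate numbers pair the arrays. Replicate differences correlated at 0.34 (buds, flowers), −0.01 (buds, siliques) and 0.17 (flowers, siliques). Alternatives were a replicate block, other offsets, filters and scalings, no trend, only the arrays compared, and leaving out each array.

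The genes and lists were chosen with earlier results of these data known. Named by rule were all SWEET genes with a probe set, up to 4 called genes per list and comparison, and the 4 closest profiles per gene; members named without a call were chosen after their values were seen. No probe, promoter or protein sequence was used here.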

Additional observations from a re-analysis of the deposited data

How the results depend on the processing

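Each of the 15 changes of the 5 SWEET genes was recomputed in 15 settings, and 216 of 225 values kept direction and side of the threshold. The replicate block left every change as it was and altered 1 call, SWEET7 in siliques against buds (−0.54), which then passed. The rise of SWEET7 from flowers to siliques was as low as 1.30 and as high as 1.502 with 1 array left out and lost its call without siliques 1 or flowers 2. The change of SWEET8 from flowers to siliques turned to 0.037 with quantile normalization and 0.064 with median scaling, and ran from −0.091 to 0.040 with 1 array left out. That of AtVEX1 ran from −0.27 to 0.77, being −0.27 without siliques 1 and −0.19 without flowers 2. That of SWEET2 ran from −0.067, without siliques 2, to 0.499, against 0.22 with all arrays. Median scaling moved the median change of all tested probe sets to 0.089, 0.12 and 0.20 in flowers against buds, siliques against flowers and siliques against buds, from values of at most 0.025 in size.

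With 1 array left out, probe sets called higher and lower numbered 219 to 567 and 361 to 640 in flowers against buds, 80 to 970 and 166 to 1066 in siliques against flowers, and 288 to 789 and 564 to 1019 in siliques against buds. Without the filter, 533 were higher in siliques than in flowers, and with median scaling 1987 were higher in siliques than in buds; the cause was not tested. Signals near the untargeted controls, as for AtVEX1 in flowers 2 and siliques 2, limit the size of a fall that can be measured.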
